A study of Mus musculus with 24 samples.

Results

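Caveolae are small flask-shaped pits of the plasma membrane, and the transcripts of 6 of their structural genes were followed in dispersed mouse islet cells: Ehd2, Cav1, Cav2, Cavin1, Cavin2 and Cavin3. They are 6 of the 41549 genes in the deposited table, picked by symbol, and all 6 were among the 15916 genes with enough reads to be tested. The set was selected on results of these same libraries, so its fold changes below are descriptions, printed with errors and intervals and without p-values.

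The cells came from islets of wild type C57BL/6NRj mice of both sexes (elsewhere in the sources written C57BL/6k), aged 12 to 14 weeks. They were transfected with 50 pmol of a control antisense oligonucleotide (ASO), giving the Ctr groups, or of an ASO directed at 5'tRFGlu(CTC), a fragment from the 5' end of a glutamate tRNA, giving the αGlu groups. They were then exposed to 0.5 mM palmitate (PA), a saturated fatty acid carried on bovine serum albumin (BSA), or to 0.75% BSA alone. The 4 groups (Ctr with BSA or PA, αGlu with BSA or PA) had 6 stranded mRNA libraries apiece, numbered S1 to S24, and the 2 batches that the sample records name without further description, up to S12 and from S13, held 3 libraries of each. All groups were dispersed and transfected, and none was left without ASO. The length of the PA exposure is not stated for these libraries.

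A caveola is built from caveolins in the inner leaflet of the membrane and a coat of cavins around them. Cav1 is needed for caveolae outside striated muscle and Cav2 associates with it, while Cavin1 is the obligate coat protein and Cavin2 and Cavin3 join it to shape the pit. EHD2, a dynamin-related ATPase, forms a ring at the neck and holds the caveola at the surface. Caveolae are abundant in endothelial cells, adipocytes, smooth muscle and fibroblasts, and pancreatic islets hold endothelial and mural cells beside their endocrine cells.

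Sequencing depth ran from 18214719 to 35001979 counted reads per library. The members were covered by few of them, with medians over all libraries of 263.5 counts for Ehd2, 196.5 for Cav1, 195.5 for Cav2, 433.5 for Cavin1, 85.5 for Cavin2 and 91.5 for Cavin3. The shallowest value was 5 counts, for Cavin2, so the low end of that gene is imprecise. The islet label was matched by Ins2, an insulin gene, which averaged 63960 ± 11900 CPM (SD, n = 6) in Ctr BSA. CPM here are library-size-scaled counts (TMM factors), which compare libraries, and deposited TPM values are used where genes are compared, since TPM also divides by transcript length.

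In the GRCm38 mouse assembly Cav2 and Cav1 lie on the plus strand within the span of one antisense gene, Gm15581, at chr6:17281185-17289115 and chr6:17306335-17341452, with 17219 bases and no further annotated gene between them. Ehd2 lies at chr7:15946958-15967567 and Cavin3 at chr7:105480083-105482300, both on the minus strand. Cavin1 is at chr11:100956733-100970887 on the minus strand and Cavin2 at chr1:51289126-51302960 on the plus strand. Antisense Gm15581 overlaps both caveolin genes, 9330175M20Rik overlaps Cavin2 and Gm45667 overlaps Cavin3 on the opposite strand, and none of these reached more than 2 counts in a library. No annotated gene overlaps Ehd2 or Cavin1. Whether the counting used strand is not stated.

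The promoters of Ehd2, Cav1 and Cavin1 are shown because these genes had the lowest PA-to-BSA ratios of the EHD, caveolin and cavin genes in Ctr cells. Each is the 250 bases before a RefSeq transcript start of GRCm38.p6, read 5' to 3' along the gene, at chr7:15967536-15967785 (minus strand), chr6:17306085-17306334 (plus strand) and chr11:100970618-100970867 (minus strand). Capitals mark GGGCGG (a GC box) or GGAATG (the core bound by TEAD factors) on either strand, so that CCGCCC and CATTCC are their reverse-strand forms.
Ehd2: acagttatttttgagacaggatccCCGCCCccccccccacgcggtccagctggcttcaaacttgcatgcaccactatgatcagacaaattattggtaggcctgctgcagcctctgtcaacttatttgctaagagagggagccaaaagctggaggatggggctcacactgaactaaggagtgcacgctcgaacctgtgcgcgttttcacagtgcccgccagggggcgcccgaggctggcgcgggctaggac
Cav1: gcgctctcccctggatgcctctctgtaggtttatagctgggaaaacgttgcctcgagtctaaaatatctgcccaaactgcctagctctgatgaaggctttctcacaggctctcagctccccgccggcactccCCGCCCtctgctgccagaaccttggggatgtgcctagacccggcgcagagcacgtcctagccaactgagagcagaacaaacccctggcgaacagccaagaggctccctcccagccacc
Cavin1: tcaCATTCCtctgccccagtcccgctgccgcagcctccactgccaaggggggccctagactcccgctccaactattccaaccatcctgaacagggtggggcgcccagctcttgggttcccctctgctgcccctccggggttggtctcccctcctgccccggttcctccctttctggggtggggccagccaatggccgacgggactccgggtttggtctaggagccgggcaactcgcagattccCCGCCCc
A GC box stood in a window of Ehd2, Cav1, Cav2 and Cavin1 each, and in 32.7% of all 32851 mouse promoter windows of that length. The members had 7 windows, and that of a second Cav1 start, not shown, had no GC box. GGAATG was found in Cavin1 alone of the 5 members with a promoter in the RefSeq table, against 12.6% of all windows. AGGTCA, a nuclear receptor recognition core held by 14% of windows, and the CArG box of serum response factor, held by 1.47%, were in none of the members' windows. No match of one motif overlapped a match of another, and a match is of letters only.

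Per transcript length, Cavin1 had the highest mean of the members in each of the 4 groups. In Ctr BSA it averaged 22 ± 7.79 TPM (SD, n = 6), followed by Ehd2 at 12.3 ± 2.47, Cav1 at 10.7 ± 3.12, Cavin3 at 8.92 ± 3.29, Cav2 at 8.55 ± 4.97 and Cavin2 at 3.95 ± 3.22. The middle of that order was not resolved: Ehd2 exceeded Cav1 in 5 of 6 libraries, Cav1 exceeded Cavin3 in 4 and Cavin3 exceeded Cav2 in 3. Cavin2 was below Cav2 in 6 of 6. The order in αGlu BSA was the same, and there too Cavin3 exceeded Cav2 in only 3 of 6 libraries.

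With PA the order was different. The libraries are bulk RNA, in which fewer cells of a type and less RNA per cell cannot be told apart. Ctr PA cells had Cavin1 at 10.1 ± 3.08 TPM, then Cav2 at 6.62 ± 2.92, Cavin3 at 4.69 ± 1.5, Ehd2 at 3.84 ± 0.688, Cav1 at 3.22 ± 1.14 and Cavin2 at 2.97 ± 3.03. Ehd2 thus stood at the fourth place in place of the second, and Cav2 at the second in place of the fifth, although neighbours below Cavin1 overlapped widely. The ratio of Cav1 to Cav2 TPM was 1.5 ± 0.553 in Ctr BSA and 0.561 ± 0.272 in Ctr PA, and 1.52 ± 0.462 and 0.636 ± 0.243 in the αGlu groups. One Ctr BSA library had a ratio of 0.539 and one αGlu BSA library a ratio of 0.813, both in batch 1 and both inside the PA range, while in batch 2 BSA libraries lay from 1.76 to 2.01 and PA libraries from 0.487 to 1.05. The ratio therefore separated BSA from PA without overlap in batch 2. In batch 1 this also held in αGlu cells (BSA 0.813 to 1.32, PA 0.339 to 0.532). Ctr cells of batch 1 overlapped (BSA 0.539 to 1.58, PA 0.253 to 0.726).

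**Figure D1:**
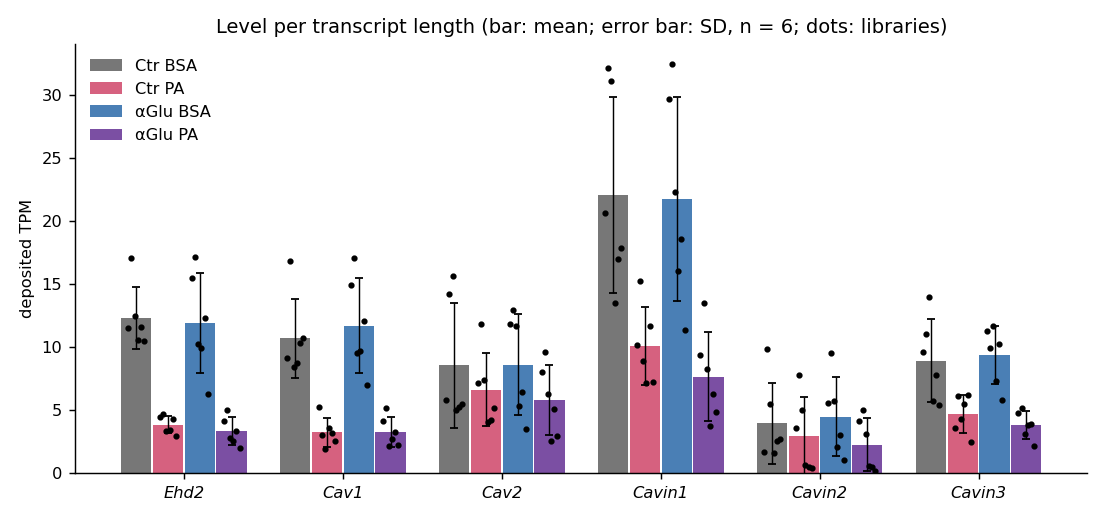
Level of the 6 genes per transcript length (vertical axis, deposited TPM; horizontal axis, gene), with bars for the mean of each of the 4 groups, error bars for the SD over 6 libraries and dots for single libraries. Cavin1 had the highest mean in every group, and Ehd2 and Cav1 had the most distinct BSA and PA bars.

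Ehd2, the neck ATPase, was separated between BSA and PA without overlap. Its level ran from 19.5 to 29.8 CPM in Ctr BSA (median 21.7) and from 5.82 to 8.42 CPM in Ctr PA (median 7.04). In αGlu cells it ran from 12.6 to 29.6 CPM with BSA (median 20.8) and from 3.71 to 8.68 with PA (median 5.68). Every PA library was below every BSA library, within either ASO and within either batch. The fitted PA-to-BSA difference was -1.73 on the log2 scale (SE 0.160, 95% interval -2.06 to -1.40) in Ctr cells, a level 3.32 times lower, and -1.83 (SE 0.162, -2.17 to -1.5) in αGlu cells, 3.56 times lower. In the single batches it was -1.89 and -1.59 for Ctr and -1.84 in each for αGlu. Of the 15916 genes tested, 326 had a lower log2 fold change than Ehd2 in Ctr cells and 273 in αGlu cells.

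Cav1, the caveolin on which the pit depends, was close to Ehd2 in size. It ran from 10.2 to 19.7 CPM in Ctr BSA (median 13.1) and from 2.19 to 6.06 in Ctr PA (median 3.71), and in αGlu cells from 9.45 to 19.8 (median 13.7) and from 2.51 to 5.98 (median 3.84). Again no PA library reached a BSA library of the same ASO. The log2 difference was -1.78 (SE 0.221, -2.24 to -1.33) in Ctr and -1.83 (SE 0.220, -2.29 to -1.38) in αGlu cells, that is 3.44 and 3.56 times lower, with batch values between -1.65 and -1.92.

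Cav2, which lies beside it, differed less. It ran from 5.96 to 18.3 CPM in Ctr BSA (median 7.98) and from 4.84 to 13.96 in Ctr PA (median 7.42), and from 4.55 to 14.5 (median 10.3) and 3.28 to 10.9 (median 6.77) in αGlu cells. The groups overlapped in both ASO backgrounds, and much of the width lay between batches, the difference of batch 2 from batch 1 being -1.14 on the log2 scale in Ctr BSA and -1.12 in αGlu BSA. The log2 PA difference was -0.37 (SE 0.183, -0.75 to 0.01) in Ctr and -0.55 (SE 0.185, -0.93 to -0.17) in αGlu cells. The second of these was past the adjusted threshold, and was lost when any of 5 αGlu libraries was left out: BSA S6 (-0.52), BSA S18 (-0.48), PA S12 (-0.49), PA S16 (-0.49) or PA S24 (-0.50).

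Of the cavins, the coat protein gene Cavin1 ran from 17.4 to 39.3 CPM in Ctr BSA (median 29.6) and from 9.63 to 19.4 in Ctr PA (median 11.6). In αGlu cells it ran from 15.9 to 39.2 (median 25.96) and from 5.11 to 16.4 (median 9.24). Pooled groups overlapped by single libraries, but within each batch no PA library reached a BSA library of the same ASO. The log2 difference was -1.15 (SE 0.166, -1.49 to -0.80) in Ctr and -1.52 (SE 0.169, -1.87 to -1.17) in αGlu cells.

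Cavin3 was at low levels, from 3.32 to 8.14 CPM in Ctr BSA (median 5.42) and from 1.61 to 3.61 in Ctr PA (median 2.91), with 3.79 to 6.59 (median 5.81) and 1.29 to 2.89 (median 2.41) in αGlu cells. BSA and PA did not overlap in αGlu cells and did in Ctr cells. The log2 difference was -0.95 (SE 0.225, -1.41 to -0.48) in Ctr cells, made up of -1.46 in batch 1 and -0.41 in batch 2, and -1.28 (SE 0.227, -1.75 to -0.82) in αGlu cells. In batch 2 alone the Ctr value did not pass the threshold.

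Cavin2 differed widely between batches. In batch 1 it ran from 2.45 to 10.3 CPM in Ctr BSA and from 3.69 to 8.42 in Ctr PA, which overlapped. In batch 2 it ran from 1.74 to 3.01 in Ctr BSA and from 0.465 to 0.741 in Ctr PA, which did not. The corresponding log2 differences were -0.15 and -2.14 in Ctr cells, and -0.76 and -2.31 in αGlu cells. Fitted over both batches they were -0.96 (SE 0.393, -1.77 to -0.15) and -1.36 (SE 0.397, -2.18 to -0.54). The Ctr value did not pass the threshold over all libraries, but did without Ctr BSA S1 (-1.22), without Ctr PA S7 (-1.28) and without αGlu BSA S18 (-0.997). Between batches the PA libraries differed by -3.14 (Ctr) and -3.09 (αGlu), against -1.10 and -1.65 for BSA. Acinar markers differed between batches with BSA as well as with PA. Their summed level was 2740 to 7410 CPM in batch 1 and 192 to 473 CPM in batch 2 of Ctr PA. In Ctr BSA it was 5820 to 17700 CPM in batch 1 and 367 to 497 CPM in batch 2. The part of such cells in the Cavin2 values was not tested.

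**Figure D2:**
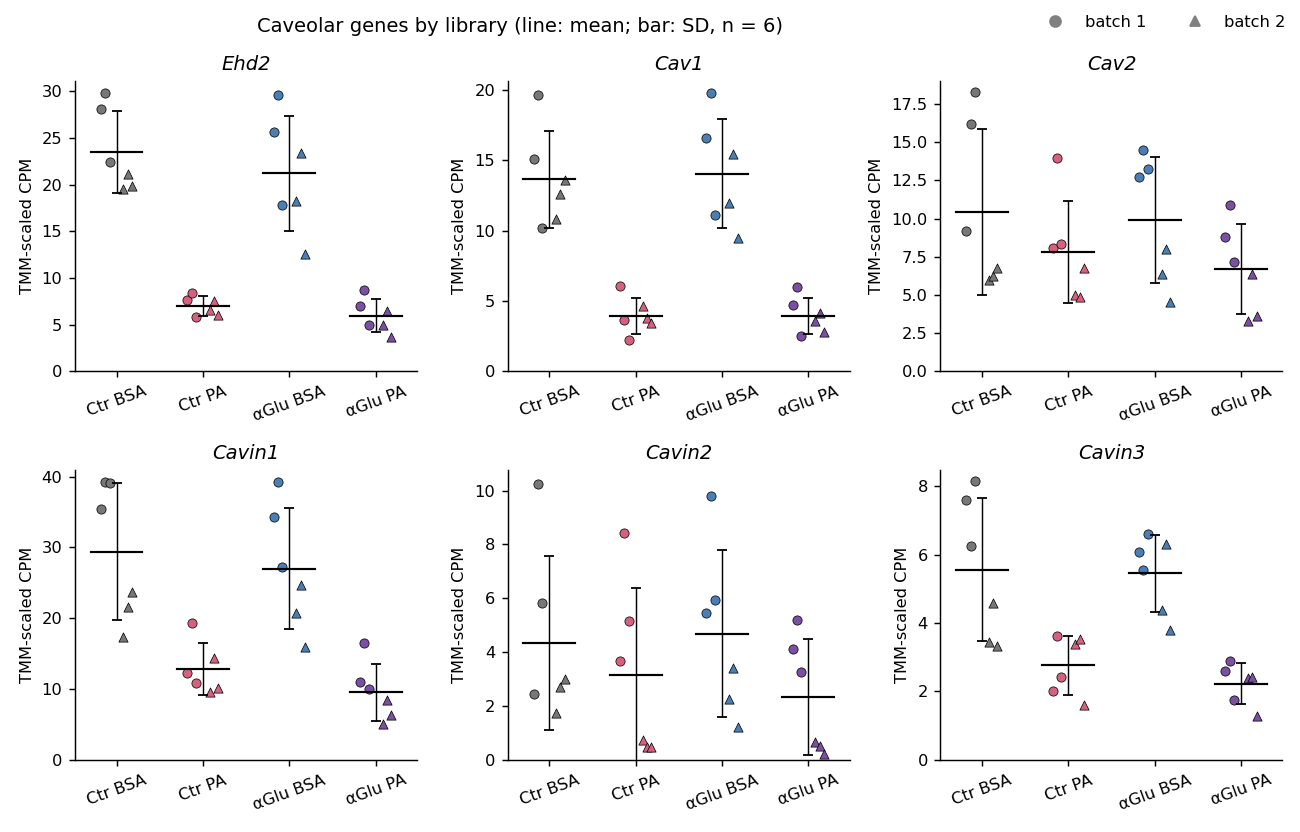
TMM-scaled CPM (vertical axes, starting at 0) of each gene in every library of the 4 groups (horizontal axes), with circles for batch 1, triangles for batch 2, a line for the mean and a bar for the SD over 6 libraries. PA libraries lie below BSA libraries for Ehd2 and Cav1, while Cavin2 falls apart by batch.

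Over the set, all 6 log2 PA differences were below 0 with either ASO, with a median of -1.05 (range -1.78 to -0.37) in Ctr and -1.44 (range -1.83 to -0.55) in αGlu cells, beside medians over all tested genes of 0.01 in both. At an adjusted p below 0.05 (edgeR's quasi-likelihood test, Benjamini-Hochberg over all tested genes), 4 of 6 members were lower in Ctr cells, where 14.5% of all genes were, and 6 of 6 in αGlu cells, where 14.2% were. By the study's threshold, a fold above 2 with p below 0.05, they were 3 of 6 beside 5.06% and 5 of 6 beside 4.74%. The p was taken here as unadjusted, which the study does not state. The study's methods also name a Benjamini-Hochberg correction. BSA and PA did not overlap for 2 of 6 members in Ctr cells (2.86% of all genes were lower in this way) and 3 of 6 in αGlu cells (3.95%). Since the members were chosen on these results, the shares describe them and add no evidence. Both PA comparisons used separate control libraries.

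Several marker lists of non-endocrine cells moved with the members. All 10 tested markers of pericytes and smooth muscle passed as lower with PA in Ctr cells (median log2 difference -2.16), and their summed level went from 298 to 521 CPM in BSA to 27.1 to 97.5 CPM in PA. In αGlu cells 10 of 10 were lower (median -2.55), with sums of 227 to 504 CPM and 33.6 to 67.3 CPM. Pdgfrb, a pericyte receptor, averaged 16.3 ± 5.02 CPM in Ctr BSA and 3.87 ± 1.84 in Ctr PA. Of the fibroblast and stellate markers, 6 of 10 were lower in Ctr (median -2.87; summed level 73.8 to 417 CPM and 7.97 to 49.0 CPM) and 5 of 10 in αGlu cells (median -2.27; 36.5 to 996 CPM and 3.51 to 167 CPM). Col1a1, the collagen I chain that fibroblasts make in quantity, averaged 76.1 ± 57.1 CPM in Ctr BSA and 8.83 ± 5.75 in Ctr PA, and had no read in 1 αGlu PA library.

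Endothelial markers moved less. In Ctr cells 1 of 17 passed as lower (median -0.80), with summed levels of 36.6 to 115 CPM in BSA and 24.7 to 98.4 CPM in PA, and in αGlu cells 1 of 17 (median -0.60), with 30.5 to 120 CPM and 21 to 92.9 CPM. Their log2 differences ran from -1.19 to 0.09 in Ctr cells, with 16 of 17 below 0. In αGlu cells they ran from -1.23 to 0.11, with 15 of 17 below 0. The marker that passed was Eng (-0.95 and -1.19). Pecam1, the endothelial adhesion molecule, averaged 6.28 ± 2.72 CPM in Ctr BSA and 5.44 ± 3.49 in Ctr PA, and Cdh5, the endothelial cadherin, 4.20 ± 2.23 and 3.34 ± 2.13. Both were present in every library. The members' medians of -1.05 and -1.44 lay between those of the endothelial and the mural lists. Medians of other lists, the acinar one among them (-1.03 and -0.86), lay there too.

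Macrophage markers were lower with PA for 8 of 10 in Ctr cells (median -2.26) and 1 of 10 in αGlu cells (median -0.43), their sum running from 79.1 to 375 CPM in Ctr BSA, 84.6 to 128 in Ctr PA, 90.7 to 175 in αGlu BSA and 80.4 to 138 in αGlu PA. Acinar markers were lower for 5 of 7 and 4 of 7 (medians -1.03 and -0.86), and ductal markers for 4 of 8 and 3 of 8 (medians -0.55 and -0.61). Schwann and glial markers passed in 0 of 10 in either comparison (medians -0.60 and -1.01), and mesothelial markers, of which only 3 were tested, in 1 of 3 as lower in both and in 1 of 3 as higher in αGlu cells. Of the beta cell markers 4 of 11 were lower and 3 higher in Ctr cells (median -0.04), and 2 lower and 3 higher in αGlu cells (median -0.06). Alpha and delta cell markers were lower for 2 of 6 and 1 of 6 (medians -0.35 and -0.23). The part of any of these cells in the members' values was not tested.

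Relative to the mural markers the members stood higher with PA. Their summed CPM amounted to 20.8% ± 3.32 (SD, n = 6) of the summed pericyte and smooth muscle markers in Ctr BSA and 67.2% ± 33.2 in Ctr PA, with lowest and highest values of 17.1% and 23.9%, and of 35.5% and 128%. In αGlu cells the values were 21.3% ± 3.51 with BSA and 57.0% ± 21.3 with PA. Each PA library had a higher percentage than any BSA library. Beside the endothelial markers the direction was the opposite. Mean sums were 86.9 CPM for the members and 74.6 CPM for the endothelial list in Ctr BSA, and 37.5 and 50.9 CPM in Ctr PA. In αGlu cells they were 82.3 and 76.3 CPM with BSA, and 30.7 and 51.4 CPM with PA.

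**Figure D3:**
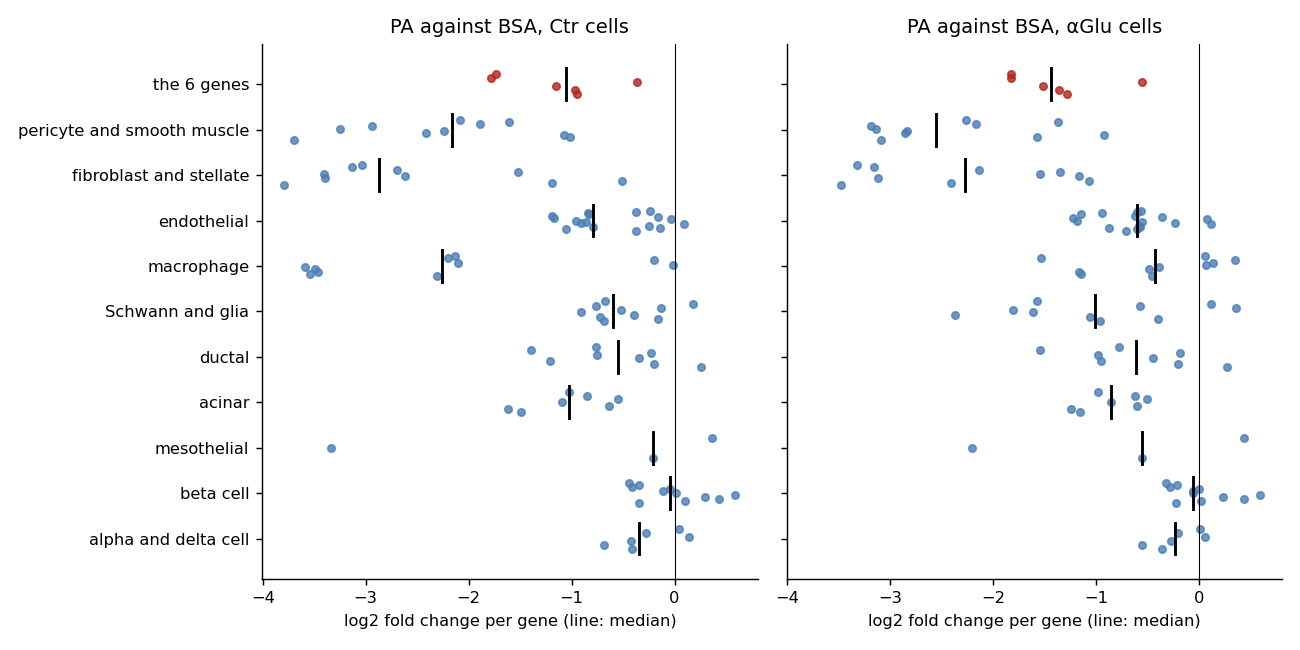
Log2 fold change of PA against BSA (horizontal axis) for the 6 genes and for each tested gene of 10 cell type marker lists (vertical axis), in Ctr cells (left) and αGlu cells (right), with a line for each median. The median of the 6 genes, all below 0, lies between those of the endothelial list and the pericyte and smooth muscle list. That of the acinar list does so too.

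The members' levels varied together to different degrees across libraries. After removal of group and batch means, Pearson's r between log2 CPM of member pairs ran from 0.033 to 0.825 over 24 libraries, with a median of 0.38 over 15 pairs. Ehd2 and Cav1 had the highest value, 0.825, followed by Ehd2 and Cavin1 at 0.76 and Cav2 and Cavin1 at 0.68, and Cavin2 and Cavin3 had the lowest. Cav1 and Cav2 had 0.29. Against the mean of each marker list, Ehd2 had 0.79 with pericyte and smooth muscle markers, 0.67 with fibroblast and stellate ones and 0.57 with endothelial ones, and Cav1 had 0.76, 0.65 and 0.73. Cavin1 had 0.68, 0.67 and 0.22. Cavin3 had 0.53, 0.27 and 0.01, and its highest value over the cell type lists was 0.64 with ductal markers. Mural values were lower for Cav2, which had 0.26, 0.415 and -0.08, and for Cavin2, which had 0.03, 0.40 and 0.39. With beta cell markers all 6 members had values below 0, from -0.31 for Cav1 to -0.72 for Cav2. The libraries share depth, batch and preparation, and these values are descriptions.

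Among 13719 genes with a mean of at least 1 CPM, those nearest to Ehd2 by the same measure were Efemp2 (0.88), Pfkp (0.88), Itga5 (0.87) and Pdyn (0.86). They were unlike in their PA differences: Itga5, the fibronectin receptor subunit, had -1.76 in Ctr and -2.09 in αGlu cells on the log2 scale, whereas Pfkp, a phosphofructokinase, had 0.21 and 0.23 and Pdyn, prodynorphin, 0.46 and 0.55. Nearest to Cav1 were Sulf1 (0.90), Ddr2 (0.90), Plod2 (0.86), Bgn (0.85) and Sparcl1 (0.84), among them a collagen receptor (Ddr2), a collagen-modifying hydroxylase (Plod2) and a matrix proteoglycan (Bgn). All 5 were lower with PA in both ASO backgrounds by the fitted difference, from -0.82 for Ddr2 to -2.24 for Bgn in Ctr cells.

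Further caveolar and related genes, Cav3 and Cavin4 included, were taken from a list of 22, of which 21 were tested. Cav3, the muscle caveolin, was not, with 10 counts in all. In Ctr cells 5 of 21 were lower with PA beside 14.5% of all genes, and 0 higher beside 15.5%, while in αGlu cells 4 were lower beside 14.2% and 2 higher beside 14.4%. The median log2 differences of the list were -0.10 and -0.12. By the study's threshold 3 were lower with either ASO (Flna, Myof and Dysf).

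The partners that fell in both backgrounds were 2 ferlins, an actin linker and a gene named for its likeness to Ehbp1. Dysf, a membrane repair ferlin, ran from 6.65 to 12.6 CPM in Ctr BSA and from 0.716 to 3.87 in Ctr PA, without overlap. Its log2 difference was -1.56 (SE 0.270, adjusted p = 0.000116 by edgeR) in Ctr and -1.77 (SE 0.272, adjusted p = 2.82e-05 by edgeR) in αGlu cells. Flna, filamin A, which binds caveolin to actin, had -1.05 (SE 0.179, adjusted p = 0.000101 by edgeR) and -1.17 (SE 0.180, adjusted p = 2.84e-05 by edgeR), in groups that overlapped. Myof, the related ferlin, had -1.07 (SE 0.213, adjusted p = 0.000507 by edgeR) and -1.15 (SE 0.214, adjusted p = 0.000248 by edgeR). Ehbp1l1, the gene named after Ehbp1, had -0.84 (SE 0.201, adjusted p = 0.00267 by edgeR) and -0.65 (SE 0.200, adjusted p = 0.0161 by edgeR). The BSA and PA groups of Myof and Ehbp1l1 overlapped in both backgrounds too. Without the batch term neither Myof (-1.06 in Ctr and -1.09 in αGlu cells) nor Ehbp1l1 (-0.80 and -0.63) passed, though the values moved little. In batch 1 alone Myof did not pass (-1.05 and -0.98). Ehbp1l1 passed neither in batch 1 alone (-0.68 and -0.54) nor in batch 2 alone (-1.01 and -0.79).

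Ehd1, Pacsin1 and Flot1 changed less. Ehd1, the paralogue of EHD2 at recycling endosomes, had -0.26 (SE 0.0703, adjusted p = 0.00611 by edgeR) in Ctr cells and -0.17 (SE 0.0701, adjusted p = 0.0657 by edgeR) in αGlu cells, where it passed without Ctr BSA S1 (-0.17), Ctr PA S23 (-0.17) or αGlu PA S24 (-0.21). Pacsin1, of a family that bends membranes, rose by 0.28 (SE 0.0922, adjusted p = 0.0228 by edgeR) in αGlu cells and had 0.10 (SE 0.0927, adjusted p = 0.445 by edgeR) in Ctr cells. Its call was lost without αGlu PA S4 (0.25) or αGlu BSA S6 (0.24). Flot1, a scaffold of flat membrane domains, rose by 0.31 (SE 0.116, adjusted p = 0.046 by edgeR) in αGlu cells. It had 0.30 (SE 0.117, adjusted p = 0.0573 by edgeR) in Ctr cells, while its αGlu call was lost with any of 15 single libraries left out, with values from 0.26 to 0.33. Without Ctr BSA S1 (0.36) or Ctr PA S23 (0.41) it passed in Ctr cells. With all libraries, the other 14 tested partners passed in neither background.

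Within the EHD family the balance was different with PA. Per transcript length, Ehd2 made up 18.5% ± 2.36 (SD, n = 6) of the summed TPM of Ehd1, Ehd2, Ehd3 and Ehd4 in Ctr BSA and 6.88% ± 0.736 in Ctr PA. In αGlu cells it made up 16.8% ± 4.02 and 5.69% ± 1.53. No PA library reached a BSA library, the lowest of which was at 11.2%. Ehd1 averaged 31.5 ± 2.91 TPM and 27.5 ± 3.45 in the Ctr groups, and Ehd4, which with Ehd3 was named after its values were seen, 14 ± 2.91 and 15.5 ± 2.05. Ehd3 averaged 8.31 ± 1.95 and 8.87 ± 1.29. Their 95% intervals of the log2 PA difference reached up to 0.20 for Ehd3 and 0.26 for Ehd4 in Ctr cells.

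**Figure D4:**
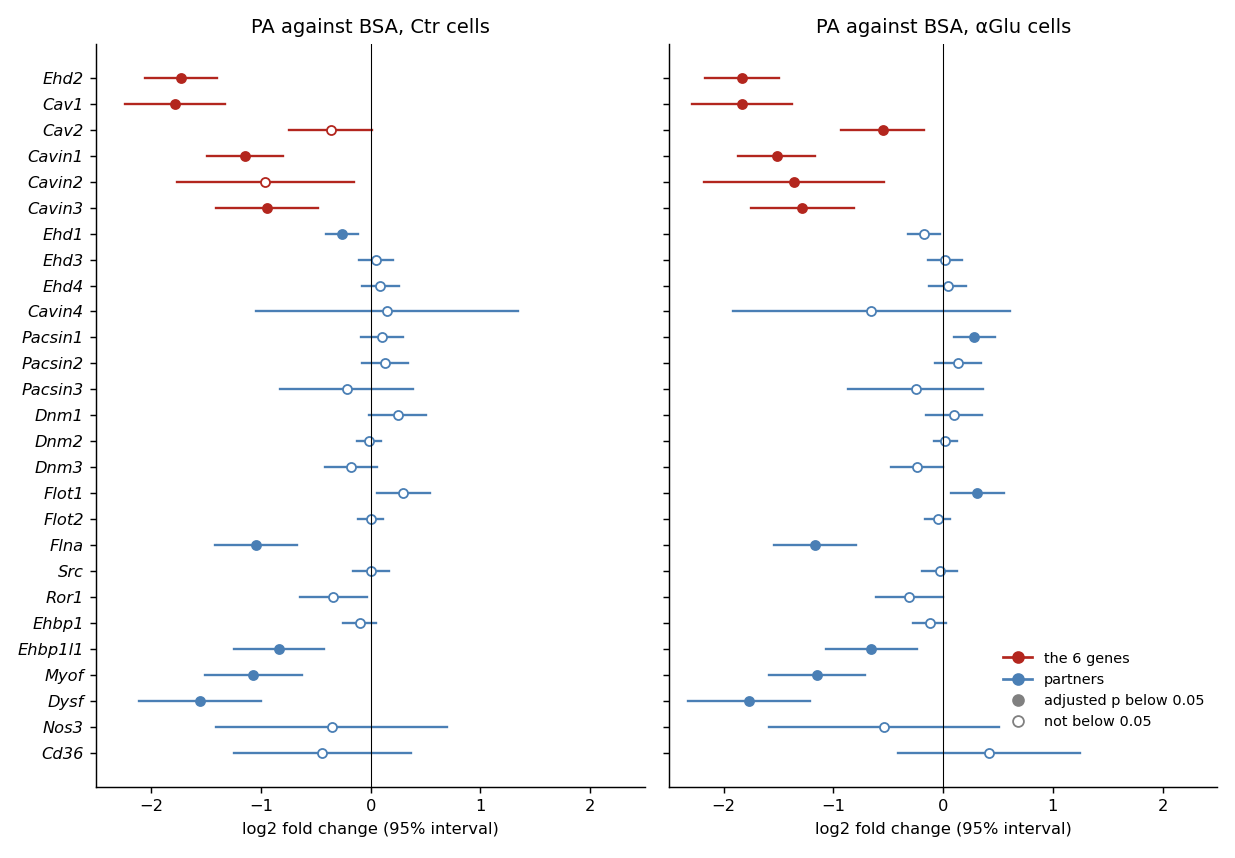
Log2 fold change of PA against BSA with its 95% interval (horizontal axis) for the 6 genes (red) and 21 partners (blue) in Ctr cells (left) and αGlu cells (right), filled where the adjusted p was below 0.05. Of the partners, Dysf, Myof, Flna and Ehbp1l1 stood furthest to the left of 0 among those that passed.

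The ASO comparison asks whether blocking 5'tRFGlu(CTC) altered these genes. With BSA the members' log2 differences of αGlu against Ctr lay on both sides of 0, from -0.15 (Ehd2, 95% interval -0.46 to 0.17) to 0.03 (Cav1, -0.39 to 0.46). With PA all 6 were below 0, from -0.02 (Cav1, -0.48 to 0.45) to -0.48 (Cavin1), with a median of -0.29. Beside them the mural list had a median of -0.25, the fibroblast and stellate list 0.38 and the endothelial list 0.02. The macrophage list had 0.82 and the glial list -2.64. No marker passed the threshold, and the part of these cells was not tested. All these libraries also served in the PA comparisons above. No member or partner passed, beside 0% of all genes in BSA, in PA and for the difference between the PA responses (edgeR, adjusted p below 0.05). At an unadjusted p below 0.05 there were 461, 538 and 332 genes. By the study's threshold 0 members and 0 partners passed, beside 0.785%, 0.942% and 0.653% of genes, and the groups overlapped for 6 of 6 members in both comparisons. Groups without overlap were also rare among all genes, at 0.0377% lower and 0.0377% higher in BSA and 0.163% lower and 0.0628% higher in PA.

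Cavin1 had the largest such value, -0.48 (SE 0.171, -0.83 to -0.12) with PA. It ran from 9.63 to 19.4 CPM in Ctr PA and from 5.11 to 16.4 CPM in αGlu PA. The difference was -0.18 in batch 1, where libraries overlapped, and -0.78 in batch 2, where Ctr PA ran from 9.63 to 14.4 and αGlu PA from 5.11 to 8.40. The difference between the PA responses of Cavin1 was -0.37 (-0.86 to 0.12), with -0.0043 in batch 1 and -0.75 in batch 2. That of Cavin3 was -0.34 (-0.99 to 0.32), with 0.12 in batch 1 and -0.83 in batch 2, and for Ehd2 and Cav1 it was -0.10 (-0.56 to 0.36) and -0.05 (-0.68 to 0.58).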

How the data were processed

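The members and gene lists were chosen with earlier results of these data known, and the lists were written from general knowledge. Per the labels and the study's methods, stranded mRNA libraries were annotated by the authors with the QIAGEN RNA-seq Analysis Portal 5.1 on GRCm38, with no aligner or annotation named. Mouse strain and age are those of the study's islet donors. For each gene and library the authors deposited a read count on exons, RPKM, TPM and CPM. Counts were used for tests, with empty cells read as 0, and the deposited TPM for levels per length. The authors' RPKM and CPM, the latter scaled so that library sums differ, were left out, as was 1 line without a gene. Library totals had a median of 26701201.5 counts. Without molecular identifiers, counting error alone understates the spread, which was estimated from replicates. By the study's reporting form, replicates of primary cells were preparations from different animals, and the groups of a replicate shared an animal. The labels do not tie libraries to animals, so the tests took no account of shared animals.

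In R 4.3.3, edgeR 4.0.16 scaled counts by TMM, kept 15916 genes by filterByExpr and fitted a quasi-likelihood negative binomial model with group and batch to all 24 libraries. PA was compared with BSA in each ASO background, αGlu with Ctr in each medium, and both PA responses with each other, two-sided, with Benjamini-Hochberg adjustment over all genes tested. Log2 CPM used a prior count of 2. All 6 members were named, together with partners that passed in any comparison, the 5 genes most like Ehd2 and Cav1 (1 is not reported here), and set markers. Alternatives were DESeq2 1.42.0, upper-quartile scaling, no filter or a stricter one (10 counts in 12 libraries), no batch term, each batch alone, only the groups compared, the study's threshold, the deposited TPM for level differences, Spearman's rho for likeness, mean log2 CPM for marker lists, and each library left out in turn. Gene positions came from GENCODE on GRCm38, and promoters from RefSeq on GRCm38.p6.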

Additional observations from a re-analysis of the deposited data

How the results depend on the processing

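No paired analysis was possible because the labels do not say which libraries of different groups came from the same animal, each library having a number of its own. The count of members past the threshold stayed within 1.5 times under every alternative run, and no direction of a member reversed past the threshold. With each library left out in turn, 4 to 5 members passed in Ctr and 5 to 6 in αGlu cells, and 5 to 7 and 4 to 7 partners. The partners that passed PA against BSA in Ctr cells numbered 3 by the study's threshold, 3 without the batch term and 3 in batch 2 alone, against 5, and in αGlu cells 3, 3, 3 and, in batch 1 alone, 2, against 6; each batch alone holds fewer libraries, and the other causes were not tested. Of the members, Cav2 in αGlu cells lost its call without the batch term (-0.57), in batch 1 (-0.60) and in batch 2 (-0.51), Cavin2 in αGlu cells without the batch term (-1.01) and in batch 1 (-0.76), and Cavin3 in Ctr cells in batch 2 (-0.41), while Cavin2 in Ctr cells gained one with DESeq2 (-1.07) and in batch 2 (-2.13). By mean log2 CPM in place of summed CPM, the log2 PA difference of the mural list in αGlu cells was -2.33 (against -2.82), that of macrophage markers in Ctr cells -1.99 (against -0.77), those of mesothelial markers -0.76 and -0.50 in Ctr and αGlu cells (against 0.35 and 0.40, a change of sign), and the αGlu difference of glial markers in PA -2.09 (against -0.95). Low counts limit Cavin2 and Cavin3 most.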
